A study of Mus musculus with 25 samples.

Results

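The glycolysis and hypoxia response genes described here are a list of 40 genes, found on the arrays by symbol. They are glucose and lactate transporters, enzymes of glycolysis and of pyruvate use, the oxygen-regulated factor HIF with its regulators, and genes known to respond to HIF. A gene was kept where at least 1 probe of that symbol had a detection p under 0.05 on at least 3 of the 25 arrays. Of the 40 genes, 36 had a probe named for them, with 54 probes in all, and 32 passed with 43 probes, out of 10261 genes tested. Probes of Gpi1, Eno1, Ldhb and Ankrd37 were not identified here. Bnip3, Car9, Higd1a and the lactate transporter Slc16a1 did not pass, so no level is given for them. The 32 genes passed a filter on low values, so counts below are counts of the measured genes and not of the whole pathway.

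The samples were B6 mouse embryos that lacked the microRNA miR-302 (knockout, KO) or were wild type (WT), with each replicate an independent embryo. Whole embryos at embryonic day 7.5 (E7.5) gave 2 WT and 3 KO arrays. Anterior neural tissue gave 3 KO arrays at E8.0, 3 of each genotype at E8.5 and 4 of each at E9.5. At E8.0 there were 3 WT arrays, of which replicate 1 was labelled a whole embryo and entered no comparison. Neither the knockout allele nor the sex of the embryos is given in the labels, and no probe was named for miR-302 in the platform annotation, so the genotype labels could not be checked. Illumina MouseRef-8 v2.0 bead arrays measured total RNA of tissue that holds several cell types. In such samples fewer cells of a type and less RNA per cell cannot be told apart.

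Glycolysis turns glucose into pyruvate and then lactate, and cells that import and export these by dedicated transporters can live on it when oxygen is short. HIF-1 alpha is made constantly and destroyed in oxygen after prolyl hydroxylases mark it. In low oxygen it is spared and switches on glucose transporters, glycolytic enzymes and genes such as Vegfa by binding short DNA motifs near their start sites. Early mouse embryos rely heavily on glycolysis, and the use of mitochondrial respiration grows as blood flow begins.

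Sequences are shown first for 3 microRNAs of the miR-302 family, since every genotype comparison rests on its loss. The labels do not say which family members the allele removes. These are the mature sequences of RefSeq (GRCm38.p6), from chromosome 3, plus strand, with the seed, bases 2 to 8, in capitals.
mmu-miR-302b-3p, chr3:127545275-127545297: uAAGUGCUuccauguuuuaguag
mmu-miR-302c-3p, chr3:127545406-127545427: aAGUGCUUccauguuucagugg
mmu-miR-302d-3p, chr3:127545665-127545687: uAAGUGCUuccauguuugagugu
The seed of miR-302b and miR-302d is AAGUGCU, and bases 2 to 8 of miR-302c are AGUGCUU.

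Promoters are shown for Adm, Pfkp, Ddit4 and Egln3, the members that stood furthest above the other knockout arrays on 1 array of E9.5, described below. Each is a RefSeq window of 300 bases (GRCm38.p6) that ends shortly after the start of the gene, printed on the strand of the gene. Capitals mark the HIF core motifs ACGTG and GCGTG, or CACGC, the reverse complement of GCGTG.
Adm, chr7:110627407-110627706, plus strand: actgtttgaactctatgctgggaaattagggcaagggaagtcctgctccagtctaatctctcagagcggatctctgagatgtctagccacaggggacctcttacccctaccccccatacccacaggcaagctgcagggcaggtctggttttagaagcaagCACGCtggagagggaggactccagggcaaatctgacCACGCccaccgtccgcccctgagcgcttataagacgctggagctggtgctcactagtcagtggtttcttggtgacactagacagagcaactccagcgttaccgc
Pfkp, chr13:6648722-6649021, minus strand: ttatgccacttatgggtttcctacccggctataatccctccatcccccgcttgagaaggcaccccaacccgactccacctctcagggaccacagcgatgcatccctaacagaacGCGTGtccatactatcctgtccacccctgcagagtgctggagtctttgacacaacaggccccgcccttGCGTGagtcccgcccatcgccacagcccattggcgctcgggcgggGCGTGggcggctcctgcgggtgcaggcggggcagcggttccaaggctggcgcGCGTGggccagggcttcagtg
Ddit4, chr10:59951721-59952020, minus strand: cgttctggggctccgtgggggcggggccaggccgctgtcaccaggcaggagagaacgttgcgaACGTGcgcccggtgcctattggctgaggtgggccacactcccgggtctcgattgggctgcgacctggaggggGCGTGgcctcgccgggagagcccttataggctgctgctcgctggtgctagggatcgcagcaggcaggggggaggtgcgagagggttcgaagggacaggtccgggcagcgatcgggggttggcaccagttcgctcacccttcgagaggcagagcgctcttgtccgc
Egln3, chr12:54203825-54204124, minus strand: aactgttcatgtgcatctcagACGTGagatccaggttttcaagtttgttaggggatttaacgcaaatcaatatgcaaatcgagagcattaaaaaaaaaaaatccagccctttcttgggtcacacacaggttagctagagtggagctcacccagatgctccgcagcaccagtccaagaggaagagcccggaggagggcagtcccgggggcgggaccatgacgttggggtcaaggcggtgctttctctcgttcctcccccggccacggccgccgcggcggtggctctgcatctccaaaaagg
The Adm window held CACGC at 2 places, the Pfkp window GCGTG at 4, the Ddit4 window 1 ACGTG and 1 GCGTG, and the Egln3 window 1 ACGTG. Of the 32 measured genes, 29 had at least 1 window, with 40 windows in all. ACGTG or GCGTG, searched on both strands, stood in 33 of those 40 windows (82.5%), in 59.5% of the 10703 windows of all genes tested and in 43.8% of all 32851 windows. ACGTG overlaps the E-box CACGTG, which stood in 10% of the member windows and 9.5% of those of all genes tested. The median number of CG pairs in a window was 19 for the member genes, 19 for all genes tested and 7 for all windows. These shares describe the windows and carry no test.

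Some arrays stood apart, and the results below are given with and without them. In the deposited raw table, the signal columns of the 3 E8.0 WT arrays did not rank the probes as the detection p-values under the same heading did. The signals headed replicate 1 matched the detection p-values of replicate 3 (rank correlation 0.975, against 0.883 under its own heading). Those headed replicate 2 matched the p-values of replicate 1 (0.978), and those headed replicate 3 the p-values of replicate 2 (0.974). The authors' normalized table gave the same order as the detection p-values, so the array labelled a whole embryo is the signal column headed replicate 2 by that table and the one headed replicate 1 by its heading. Signals were used under their own headings, and the members' calls that use E8.0 WT are also given with the identities of the normalized table. On E9.5 KO replicate 3, many member genes were the highest of the stage, as described below. Visceral endoderm markers, 8 of 10 measured, had mean log2 signals of 9.96 to 10.9 at E7.5 and 5.23 to 7.22 from E8.0 on. Neural progenitor markers, 7 of 10 measured, ran from 6.17 to 6.84 at E7.5 and from 6.78 to 8.47 later, and Pax6, Sox3 and Pax2 did not pass the filter. Primitive erythroid markers had means of 8.88 to 11.7 on every array from E8.0 on, and of 5.33 to 7.36 at E7.5. The array headed as a whole embryo had a visceral endoderm mean of 5.78, and the other E8.0 WT arrays had 5.87 and 6.99.

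Values below are normalized log2 signals, and a difference is given with its standard error (SE) and the adjusted p of limma. The threshold was an adjusted p of 0.05, adjusted over all 10261 genes. Signals of different genes cannot be set against each other on these arrays. Mif, Gapdh, Ldha and Tpi1 lay so near the shared top value of 15.01 that their range was compressed, with highest minus lowest of 0.22 to 0.52 over the 25 arrays. Hk1 was detected on 6 arrays, Adm on 7, Pfkfb3 on 11 and Pgk1 on 18, Egln1 and Hmox1 on 22, Pfkp on 24, and the other 25 genes on all 25.

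**Figure D1:**
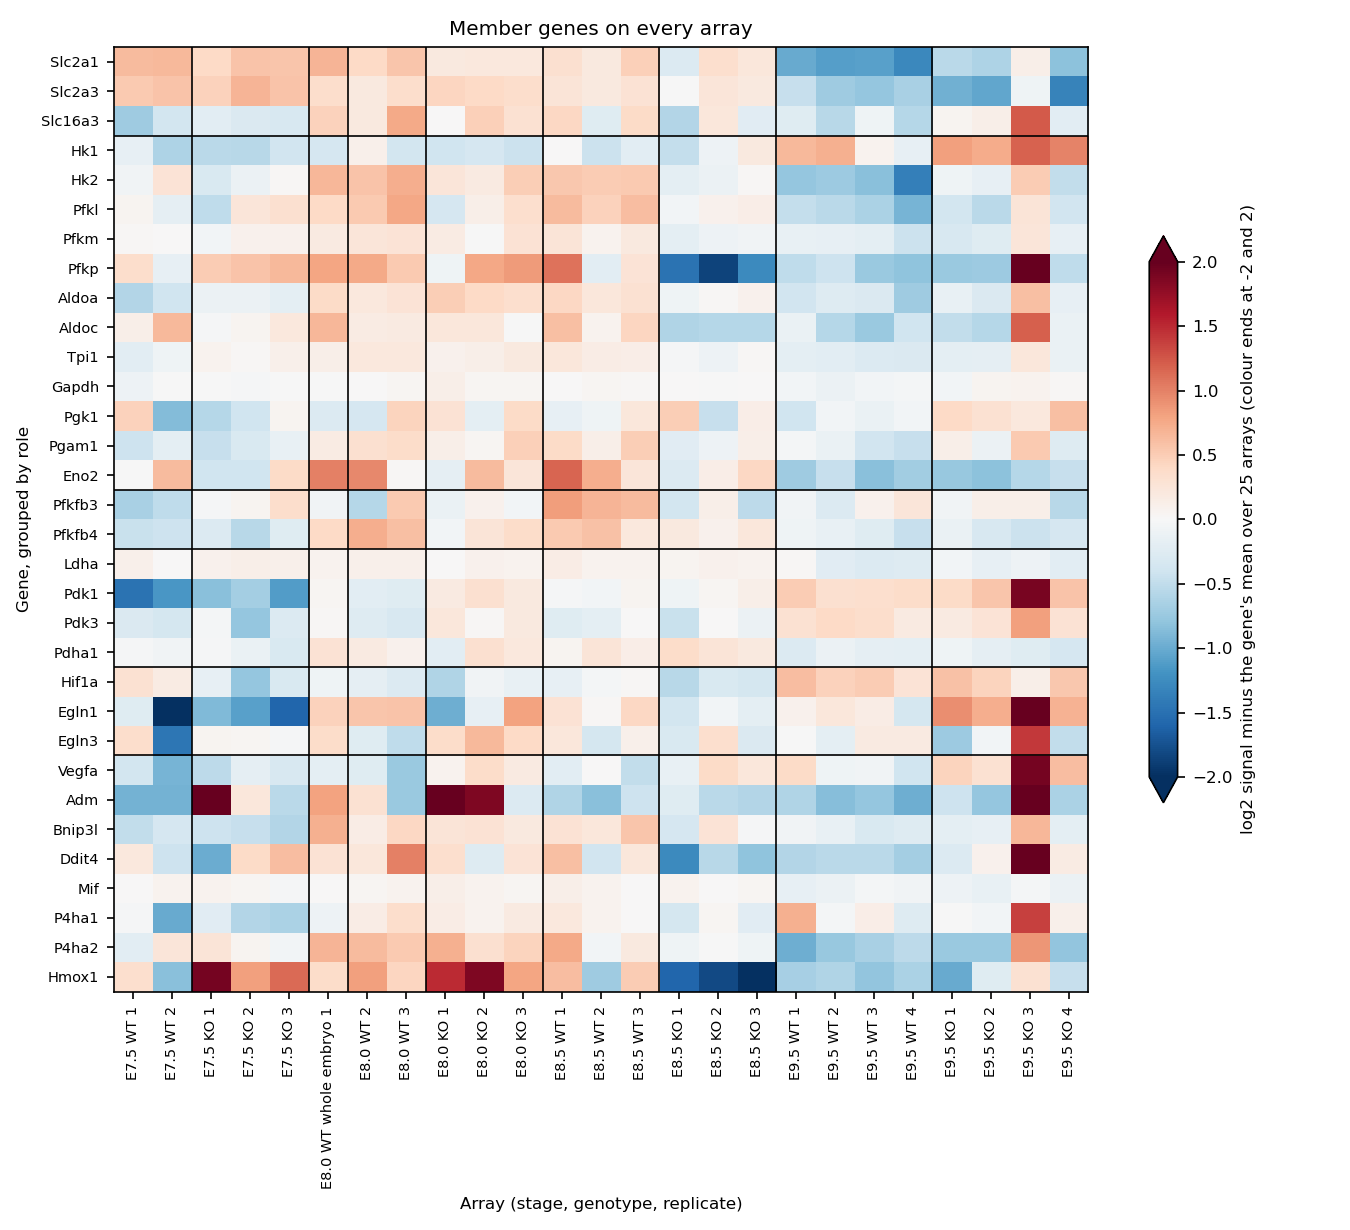
Log2 signal of the 32 measured genes (rows, grouped by role) on the 25 arrays (columns, by stage, genotype and replicate), each minus the gene's mean over the arrays. The E9.5 KO 3 column is red for Pfkp, Ddit4, Adm, Vegfa, Pdk1 and Egln1, and Slc2a1 and Slc2a3 are blue on most other E9.5 arrays.

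Between E7.5 and E8.0 the tissue also changed, from whole embryo to anterior neural tissue. In either direction, 12.5% of members passed in WT, against 14.1% of all genes tested. In KO 18.8% passed, against 25.8%, so members passed no more often than all genes. Those that passed went up. In WT, 4 of 32 members rose, against 6.54% of all genes tested, and 0 fell, against 7.55%. In KO, 6 rose, against 13.8%, and 0 fell, against 12.0%. Pdk1, the kinase that shuts pyruvate dehydrogenase, Pfkfb4, which sets the level of a phosphofructokinase activator, and Aldoa, the main glycolytic aldolase, passed in both genotypes. With the E8.0 WT identities of the normalized table, 7 members rose in WT, against 6.53% of all genes. Among them were Pdk1 (1.22, adjusted p = 0.0118), Pfkfb4 (0.94, 0.000725), Aldoa (0.83, 0.0114) and Egln1 (1.63, 0.0385).

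Pdk1 read 8.60 and 8.91 on the E7.5 WT arrays and 9.88 and 9.84 on the E8.0 WT arrays. The KO arrays read 9.24, 9.40 and 8.96, then 10.3, 10.4 and 10.3, so the stages did not overlap in either genotype. The difference was 1.10 ± 0.31 (SE) in WT (adjusted p = 0.0212) and 1.11 ± 0.25 in KO (adjusted p = 0.00282). Pfkfb4 rose by 1.10 ± 0.17 in WT (adjusted p = 0.000114), 2.14-fold, and by 0.55 ± 0.14 in KO (adjusted p = 0.00604). Its E7.5 values of 8.14 to 8.44 lay below its E8.0 values of 8.63 to 9.41. Aldoa rose by 0.74 ± 0.21 in WT (adjusted p = 0.0223) and by 0.55 ± 0.17 in KO (adjusted p = 0.0224).

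Egln1, the prolyl hydroxylase PHD2 that marks HIF-1 alpha for destruction, rose in WT by 1.67 ± 0.51 (adjusted p = 0.0327), from 6.63 and 4.87 to 7.41 and 7.43. The E7.5 WT arrays lay far apart, and without E7.5 WT replicate 2 the difference was 0.80 (adjusted p = 0.406). It was also lost without E8.0 WT replicate 2 (adjusted p = 0.131) or 3 (adjusted p = 0.119), and with the authors' normalized values (0.43, adjusted p = 0.228). The other Egln1 probes, tested singly, did not pass, at 0.94 (adjusted p = 0.216) and 1.61 (adjusted p = 0.0639). On E7.5 WT replicate 2 they read 6.56 and 5.40. In KO, Egln1 differed by 1.07 ± 0.42 (adjusted p = 0.0655), with overlapping stages. Bnip3l, a mitophagy receptor, rose in KO by 0.73 ± 0.19 (adjusted p = 0.00758). In WT it differed by 0.70 ± 0.23 (adjusted p = 0.0524), and by 0.98 with an adjusted p of 0.00722 under the identities of the normalized table. That table's identities also added Pfkfb3 (0.80, adjusted p = 0.0337) and the lactate exporter Slc16a3 (1.16, adjusted p = 0.0323) in WT.

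Pdk3, another pyruvate dehydrogenase kinase, rose in KO by 0.51 ± 0.18 (adjusted p = 0.0388), and Pgam1, a phosphoglycerate mutase, by 0.52 ± 0.18 (adjusted p = 0.0421). Pdk3 was lost without 5 of the 6 arrays in turn and Pgam1 without 4. Pdk3 stood at 0.31 (adjusted p = 0.245) without E7.5 KO replicate 2, and Pgam1 at 0.39 (adjusted p = 0.165) without E8.0 KO replicate 3. Pdk1 in WT was lost without any 1 of 3 arrays, with 0.94 (adjusted p = 0.166) without E7.5 WT replicate 1, and Aldoa in WT likewise, with 0.64 (adjusted p = 0.162) without the same array. Aldoa in KO was lost without 4 of 6 arrays (adjusted p 0.0522 to 0.0684). KO replicate 1 of both stages was on plate 2 and the other KO arrays of these stages on plate 1. Within plate 1, Aldoa (0.52, adjusted p = 0.0857) and Pgam1 (0.49, adjusted p = 0.125) lost their calls in KO. Pdk1, Pfkfb4, Bnip3l and Pdk3 kept theirs.

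The median log2 difference over the 32 members was 0.45 in WT and 0.20 in KO, against 0.03 and 0.06 over all genes. Of the 12 glycolytic enzymes measured, 11 had a positive difference in each genotype, and 1 passed in WT and 2 in KO. The transporters Slc2a1 and Slc2a3, which carry glucose as GLUT1 and GLUT3, did not pass in either genotype.

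At E7.5, 0 of 32 members differed between KO and WT by limma, against 0.224% of all genes, and 4 members had an unadjusted p under 0.05. At E8.0, 0 members differed, against 1.73% of all genes, and 3 had an unadjusted p under 0.05. With the identities of the normalized table the E8.0 share over all genes was 0.156% and the member count was again 0. The largest differences by size were those of Adm, which encodes the vessel-active peptide adrenomedullin. It read 4.75 and 4.76 on the E7.5 WT arrays and 9.54, 5.92 and 5.16 on the KO arrays. The high value came from E7.5 KO replicate 1 (difference 2.12 ± 0.99, adjusted p = 0.609). At E8.0 it read 5.998 and 4.96 in WT and 7.75, 7.57 and 5.43 in KO. Trophoblast markers, 7 of 10 measured, were also high on E7.5 KO replicate 1, with a mean of 8.38, against 6.87 to 7.72 on the other E7.5 arrays, and Prl4a1 of giant cells read 8.95 there. At E8.0 the trophoblast means were 7.45 and 7.12 in WT and 7.69, 8.38 and 7.78 in KO. Prl4a1 read 9.89 and 8.185 on those WT arrays and 9.63, 10.77 and 9.41 in KO. It was thus also high on E8.0 arrays where Adm was low. Adrenomedullin is made in trophoblast giant cells. The part of these cells, of other cells or of plate in the Adm values was not tested.

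At E8.5, 3 of 32 members fell in KO relative to WT, against 2.42% of all genes, and 0 rose, against 3.18%. They were Hmox1, which encodes the haem-degrading enzyme heme oxygenase 1, Pfkp, the platelet-type phosphofructokinase, and Pfkfb3, which makes a phosphofructokinase activator. The median over the members was -0.29, against -0.02 over all genes, and 26 of 32 were negative, against 5426 of all 10261 genes. Hk1 and Adm, which no E8.5 array detected, are among the 32. Of the 12 glycolytic enzymes, 10 were negative and 1 passed. Genes outside the member list did not share the shift. Of 25 other glycolysis and pyruvate genes 13 were negative (median -0.01), and of 31 other hypoxia response genes 16 (median -0.03).

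Hmox1 read 7.44, 6.10 and 7.33 on the E8.5 WT arrays and 5.23, 5.02 and 4.78 on the KO arrays, where it was detected on 0 of 3. The groups did not overlap, and Hmox1 was at least 2.28-fold lower in KO (difference -1.95 ± 0.38, adjusted p = 0.0081). Without E8.5 WT replicate 1 the difference was -1.71 (adjusted p = 0.0608). Replicates 2 and 3 of the KO were on plate 3 and all other E8.5 arrays on plate 2. Within plate 2, with 1 KO array, the difference was -1.73 (adjusted p = 0.191).

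Pfkp read 8.57, 7.27 and 7.76 in WT and 5.995, 5.63 and 6.20 in KO. It was 3.79-fold lower in KO (difference -1.92 ± 0.56, adjusted p = 0.0479), with no overlap. The call was lost without any 1 of the 6 arrays, with values from -1.57 (adjusted p = 0.21, without WT replicate 1) to -2.22 (adjusted p = 0.0528, without WT replicate 2). A second probe of Pfkp gave -0.83 (adjusted p = 0.246). Pfkfb3 read 6.44, 6.29 and 6.23 in WT and 5.23, 5.72 and 5.09 in KO, where it was detected on 0 of 3, and was at least 1.46-fold lower (difference -0.97 ± 0.23, adjusted p = 0.0232). It was lost without WT replicate 1 (-0.91, adjusted p = 0.0983) and without KO replicate 3 (-0.84, adjusted p = 0.0855). Within plate 2 Pfkp differed by -1.87 (adjusted p = 0.338) and Pfkfb3 by -1.085 (adjusted p = 0.145). With the authors' normalized values all 3 calls were lost and the differences were smaller. Hmox1 then differed by -0.46 (adjusted p = 0.0924), Pfkfb3 by -0.18 (adjusted p = 0.089) and Pfkp by -0.65 (adjusted p = 0.321).

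Hk2, a hexokinase of growing and low-oxygen cells, did not pass at E8.5, although its groups did not overlap. It read 13.2 on all 3 WT arrays and 12.5, 12.6 and 12.7 in KO (difference -0.62 ± 0.20, adjusted p = 0.0713). With the authors' normalized values it was the 1 member that passed, at -0.64 (adjusted p = 0.0469). Aldoc, the brain aldolase, differed by -0.96 ± 0.31 (adjusted p = 0.073). Hmox1 is strongly used by macrophages that clear red cells. Of 8 macrophage and blood markers 2 were measured, Laptm5 and Fcer1g. Laptm5 read 8.88, 8.61 and 7.70 in WT and 6.34, 6.52 and 7.14 in KO, so it was lower in KO with no overlap. Fcer1g read 4.81, 4.99 and 4.76 in WT and 5.70, 6.08 and 4.61 in KO. Mean endothelial marker signals were 6.68 to 7.75 in WT and 6.81 to 7.19 in KO, and surface ectoderm means 9.78 to 10.1 in WT and 10.2 to 10.6 in KO. Their part in the Hmox1 result was not tested.

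Between E8.0 and E8.5, 0 of 32 members changed in WT by limma, against 0.039% of all genes, and 1 had an unadjusted p under 0.05. In KO, 2 fell, against 2.17%, and 0 rose, against 1.03%. Hmox1 read 8.31, 8.68 and 7.60 on the E8.0 KO arrays and fell to the E8.5 values above, at least 5.38-fold (difference -3.19 ± 0.38, adjusted p = 0.000419). That call was kept without each of the 6 arrays in turn, and with the authors' normalized values at a smaller difference of -1.004 (adjusted p = 0.00949). Plate 2 held 1 KO array of each stage, so a comparison within it has no replicates and cannot separate plate from stage. Pfkp read 7.40, 8.25 and 8.32 at E8.0 in KO and differed by -2.05 ± 0.56 (adjusted p = 0.0492). That call was lost without any 1 of the 6 arrays (adjusted p 0.0684 to 0.145), and with the authors' normalized values it stood at -0.70 (adjusted p = 0.329). With the identities of the normalized table its adjusted p was 0.0503. The KO effect at E8.5 minus that at E8.0 passed for 0 members by limma, against 0.127% of all genes, and 3 had an unadjusted p under 0.05. For Hmox1 it was -2.70 ± 0.58 (adjusted p = 0.0705), and -2.93 (adjusted p = 0.0825) with the identities of the normalized table.

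**Figure D2:**
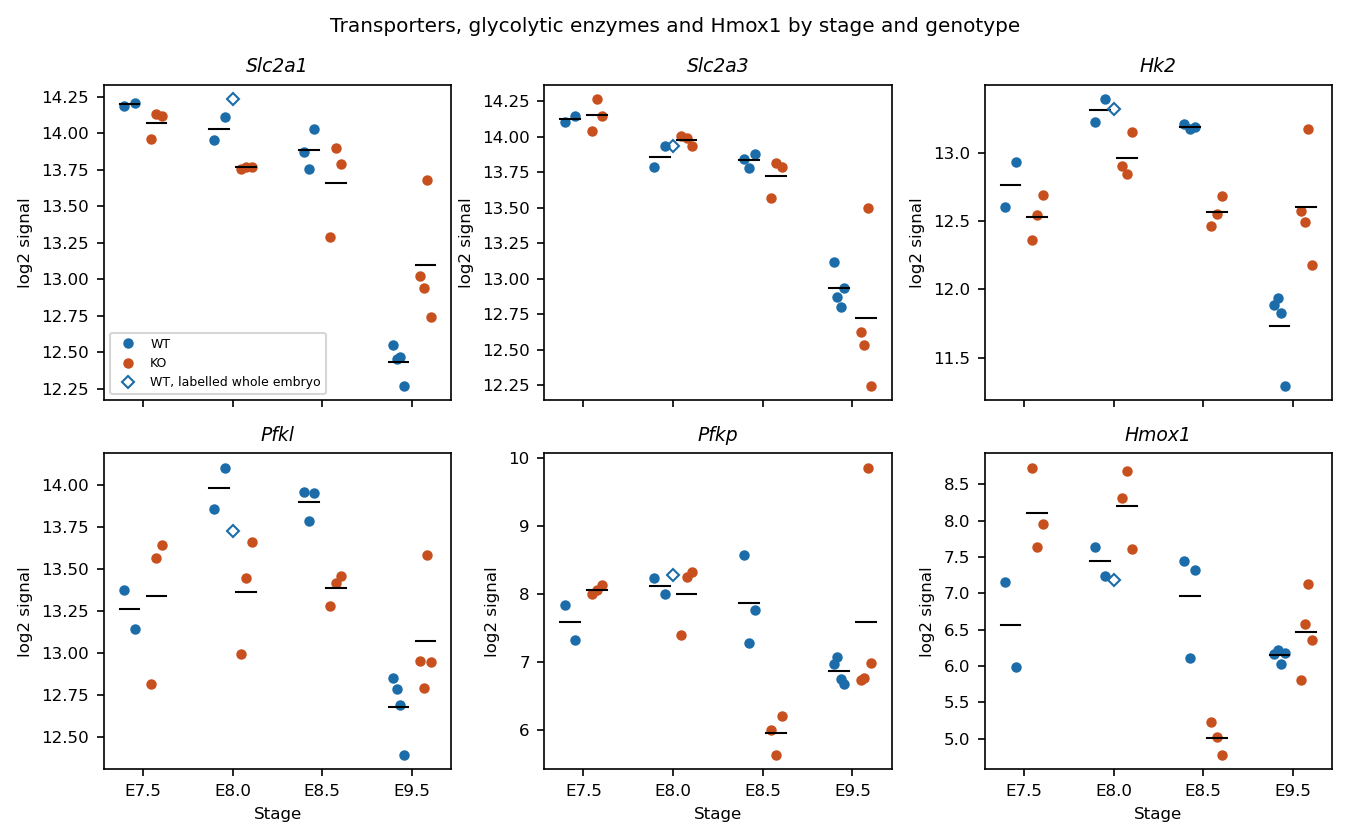
Log2 signal (vertical) of 6 member genes on every array by stage (horizontal), WT in blue and KO in orange, with a black line at the group mean and an open diamond for the E8.0 WT signal headed as a whole embryo. Within WT, Slc2a1, Slc2a3 and Hk2 are lowest at E9.5. Pfkp and Hmox1 are low in KO at E8.5, and 1 E9.5 KO array stands high in all 6 panels.

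From E8.5 to E9.5, glucose uptake and glycolysis genes fell in WT neural tissue. Hk1 was detected on 6 arrays, all of E9.5, so it passed the filter through that stage alone, had to differ, and is left out of the counts for this interval. Of the other 31 members, 16 fell, against 22.9% of all genes, and 2 rose, against 18.9%. Of the 11 other glycolytic enzymes, 8 fell and 0 rose. Both glucose transporters fell, and so did both PFKFB regulators. The median over the 31 members was -0.55, against -0.07 over all genes. All E9.5 arrays were on plate 4 and no other stage was, so stage and plate cannot be told apart in this comparison. With plate as a random block 9 of 32 members passed, all as lower, against 29.6% of all genes in either direction. Aldoc, Bnip3l, Ldha, P4ha2, Pdha1, Pfkfb3, Pfkm, Hif1a and Pdk3 were then lost (adjusted p 0.0567 to 0.126). Markers of other cells moved over the same interval in WT, with no overlap between the stages. Endothelial means went from 6.68 to 7.75 at E8.5 to 8.34 to 8.47 at E9.5, erythroid means from 8.88 to 10.5 to 11.4 to 11.7, and neuronal means from 6.65 to 6.81 to 7.64 to 7.92. In KO the endothelial means went from 6.81 to 7.19 to 7.99 to 8.51, the erythroid from 9.79 to 10.5 to 10.9 to 11.3 and the neuronal from 6.79 to 6.86 to 7.78 to 8.27. Their part in the results of either genotype was not tested.

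Slc2a1 (GLUT1) read 13.9, 13.8 and 14.0 at E8.5 and 12.6, 12.5, 12.5 and 12.3 at E9.5. It fell 2.73-fold (difference -1.45 ± 0.17, adjusted p = 2.32e-06). Slc2a3 (GLUT3) read 13.8, 13.8 and 13.9, then 13.1, 12.9, 12.8 and 12.9, and fell 1.87-fold (difference -0.90 ± 0.19, adjusted p = 0.000713). Neither transporter overlapped between the stages. Slc16a3, the lactate exporter MCT4, differed by -0.55 ± 0.27 (adjusted p = 0.118).

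Hk2, which traps glucose in the cell, read 13.2 on all 3 arrays at E8.5 and 11.9, 11.9, 11.8 and 11.3 at E9.5. It fell 2.74-fold (difference -1.45 ± 0.19, adjusted p = 5.88e-06). Pfkl, the liver-type phosphofructokinase, fell 2.33-fold (difference -1.22 ± 0.21, adjusted p = 0.000101), from 13.8 to 14.0 at E8.5 to 12.4 to 12.9 at E9.5. A second probe of Pfkl gave -0.69 (adjusted p = 0.0201). Eno2, the neuronal enolase, fell 2.62-fold (difference -1.39 ± 0.27, adjusted p = 0.000348). Aldoa fell by 0.72 ± 0.16 (adjusted p = 0.00127) and Aldoc by 0.83 ± 0.29 (adjusted p = 0.0257). Smaller falls of 0.28 to 0.58 passed for Pgam1, Pfkm, Tpi1 and Ldha, the last of these the enzyme that makes lactate from pyruvate. The other Pfkm probes (-0.23, adjusted p = 0.23, and -0.54, adjusted p = 0.254), and 2 other Tpi1 probes (-0.26, adjusted p = 0.115, and -0.24, adjusted p = 0.707), did not pass.

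Among the regulators, Pfkfb4 fell by 0.68 ± 0.13 (adjusted p = 0.000312) and Pfkfb3 by 0.72 ± 0.22 (adjusted p = 0.0119). P4ha2, a collagen prolyl hydroxylase known to respond to HIF, fell by 1.03 ± 0.30 (adjusted p = 0.00863), and Bnip3l by 0.55 ± 0.18 (adjusted p = 0.0177). Vegfa differed by 0.19 (adjusted p = 0.638) by the probe used and by -0.90 (adjusted p = 0.0108) by its second probe, so its probes disagreed. Pdha1, a pyruvate dehydrogenase subunit, fell by 0.34 ± 0.12 (adjusted p = 0.0233), while its inhibitor Pdk3 rose by 0.45 ± 0.16 (adjusted p = 0.0336). Hif1a, which encodes HIF-1 alpha, read 8.77, 8.90 and 8.96 at E8.5 and 9.55, 9.40, 9.43 and 9.21 at E9.5, and rose by 0.52 ± 0.15 (adjusted p = 0.01). Hk1 was detected on 0 of 3 arrays at E8.5 and 2 of 4 at E9.5, and its stages overlapped.

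Some of these calls were lost when 1 array was left out, with differences of the same sign. Without E8.5 WT replicate 1, Aldoc stood at -0.72 (adjusted p = 0.104), P4ha2 at -0.79 (0.0667), Ldha at -0.25 (0.0633), Pfkm at -0.37 (0.0522), Pfkfb3 at -0.66 (0.0511) and Pdk3 at 0.40 (0.115). Without E8.5 WT replicate 3, Bnip3l stood at -0.45 (adjusted p = 0.0918), Aldoc at -0.80 (0.0696) and Pdha1 at -0.35 (0.0525). Pdha1 stood at -0.29 (adjusted p = 0.0994) without E8.5 WT replicate 2 and at -0.32 (0.0521) without E9.5 WT replicate 1. Aldoc stood at -0.80 (adjusted p = 0.0546) without E9.5 WT replicate 2 and at -0.74 (0.0705) without E9.5 WT replicate 3. Pdk3 was lost without E8.5 WT replicate 2 (0.42, adjusted p = 0.0909) and without E9.5 WT replicate 1 (0.45, 0.0524), 2 (0.42, 0.0753) or 3 (0.44, 0.0658). Slc2a1, Slc2a3, Hk2, Pfkl, Eno2, Aldoa, Pgam1, Tpi1, Pfkfb4 and Hif1a kept their calls without each array in turn.

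In KO neural tissue over the same interval, 5 of the 31 members other than Hk1 fell, against 18.6% of all genes, and 7 rose, against 15.6%. The median over the 31 was 0.12, against -0.04 over all genes. Without E9.5 KO replicate 3 it was -0.12, with 5 members lower, against 15.8%, and 5 higher, against 13.0%. With plate as a random block 6 of 32 members passed, 4 as higher, Hk1 among them, and 2 as lower, against 18.4% of all genes in either direction. Slc2a1, Eno2, Pfkp, Ddit4, Egln1, Pdk1 and Pfkfb4 were then lost (adjusted p 0.0524 to 0.133). Both glucose transporters fell here too. Slc2a1 read 13.3, 13.9 and 13.8 at E8.5 and 13.0, 12.9, 13.7 and 12.7 at E9.5, so the stages overlapped through replicate 3. Its difference was -0.56 ± 0.17 (adjusted p = 0.0163), and -0.76 ± 0.14 (adjusted p = 0.000572) without that array. Slc2a3 fell by 1.00 ± 0.19 (adjusted p = 0.000504), and by 1.26 ± 0.12 (adjusted p = 2.15e-06) without it.

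Of the glycolytic enzymes, Eno2 fell in KO (-0.74 ± 0.27, adjusted p = 0.0385) and Pfkp rose. Hk2 read 12.5, 12.6 and 12.7 at E8.5 and 12.6, 12.5, 13.2 and 12.2 at E9.5, a difference of 0.04 ± 0.19 that did not pass. Hk1 was detected on 0 of 3 arrays at E8.5 and 4 of 4 at E9.5. Pfkp rose 3.11-fold (difference 1.64 ± 0.52, adjusted p = 0.0201), and by 0.88 ± 0.27 (adjusted p = 0.022) without replicate 3. Hmox1 was at least 1.62-fold higher at E9.5 (difference 1.46 ± 0.36, adjusted p = 0.00415). Hif1a rose by 0.82 ± 0.15 (adjusted p = 0.000472), Pdk1 by 0.83 ± 0.24 (adjusted p = 0.0111), or 0.48 ± 0.12 (adjusted p = 0.00572) without replicate 3, and Pdk3 by 0.57 ± 0.16 (adjusted p = 0.0115). Pfkfb4 fell by 0.48 ± 0.13 (adjusted p = 0.00778) and Pdha1 by 0.49 ± 0.12 (adjusted p = 0.0036).

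Egln1 and Ddit4, a stress-induced brake on the growth kinase mTOR, were among the calls lost without replicate 3. Egln1 rose by 1.30 ± 0.39 (adjusted p = 0.0146) with it and differed by 1.00 (adjusted p = 0.0558) without it. Ddit4 rose by 1.59 ± 0.53 (adjusted p = 0.0273) with it and differed by 0.87 (adjusted p = 0.0677) without it. P4ha2 passed only without it, at -0.69 ± 0.18 (adjusted p = 0.00745). Other calls of the KO interval were lost without other arrays. Slc2a1 stood at -0.45 without E8.5 KO replicate 2 (adjusted p = 0.0893) and without E9.5 KO replicate 4 (0.0599), and at -0.50 without E8.5 KO replicate 3 (0.0694). Eno2 was lost without each of 5 arrays (-0.58 to -0.77, adjusted p 0.0573 to 0.164). Pfkp stood at 1.48 without E8.5 KO replicate 2 (adjusted p = 0.072), Pdk3 at 0.44 without E8.5 KO replicate 1 (0.0708), and Ddit4 at 1.39 without E8.5 KO replicate 1 (0.0936) and 1.62 without E8.5 KO replicate 3 (0.0599).

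**Figure D3:**
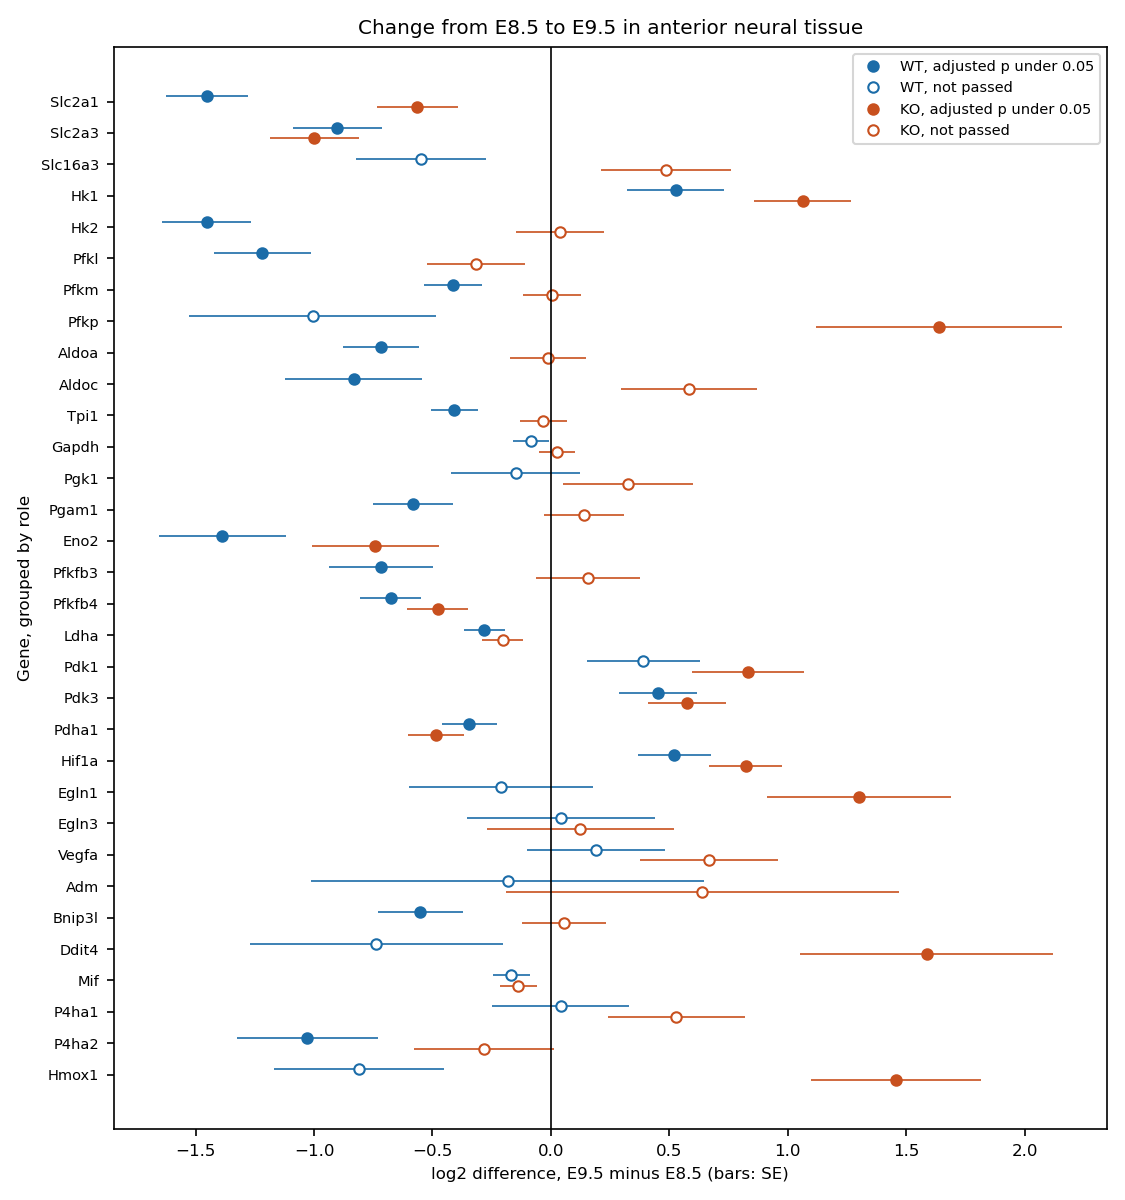
Log2 difference from E8.5 to E9.5 (horizontal, bars are SE) for each of the 32 members (vertical, grouped by role), in WT (blue, 3 and 4 arrays) and KO (orange, 3 and 4 arrays). Filled points passed at an adjusted p under 0.05, and Hk1, detected at E9.5 alone, is drawn but not counted in the text; Hk2, Pfkl and Slc2a1 lie further left in WT, and Pfkp, Ddit4 and Hmox1 lie right of zero in KO and left of it in WT.

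At E9.5, 2 of 32 members were higher in KO than in WT, against 1.56% of all genes, and 0 were lower, against 0.711%. Both take up or trap glucose. Hk2 read 11.9, 11.9, 11.8 and 11.3 in WT and 12.6, 12.5, 13.2 and 12.2 in KO, so the groups did not overlap. It was 1.83-fold higher in KO (difference 0.87 ± 0.17, adjusted p = 0.0114). Slc2a1 read 12.6, 12.5, 12.5 and 12.3 in WT and 13.0, 12.9, 13.7 and 12.7 in KO, with no overlap. It was 1.58-fold higher in KO (difference 0.66 ± 0.16, adjusted p = 0.0329).

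Without KO replicate 3, Hk2 was 1.60-fold higher (difference 0.68 ± 0.15, adjusted p = 0.0328) and Slc2a1 differed by 0.47 (adjusted p = 0.0898). Slc2a3 was then lower in KO, by -0.46 ± 0.11 (adjusted p = 0.0454), with 12.6, 12.5 and 12.2 in KO against 12.8 to 13.1 in WT. With all arrays its difference was -0.21 (adjusted p = 0.598). The counts without that array were 1 higher, against 0.975% of all genes, and 1 lower, against 0.312%. WT replicate 4 mattered as well. It was the lowest of the 8 arrays for 16 of 32 members, against 25% of all genes, and without it Hk2 stood at 0.72 (adjusted p = 0.062) and Slc2a1 at 0.61 (adjusted p = 0.137). Slc2a1 was also lost without WT replicate 2 (0.67, adjusted p = 0.0638), WT replicate 3 (0.67, adjusted p = 0.078) and KO replicate 1 (0.69, adjusted p = 0.0711). Neural progenitor markers had a mean of 7.53 on WT replicate 4, 7.96 to 8.06 on the other WT arrays and 8.36 to 8.47 in KO. Erythroid means were 11.38 to 11.68 in WT and 10.86 to 11.28 in KO, and surface ectoderm means 10.08 to 10.73 in WT and 9.93 to 10.06 in KO, with no overlap in either. Endothelial means were 8.34 to 8.47 in WT, 7.99 to 8.06 on 3 KO arrays and 8.51 on KO replicate 3. The part of these cells in the results at E9.5 was not tested.

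E9.5 KO replicate 3 was the highest of the 8 arrays of the stage for 24 of 32 members (75%), against 18.1% of all genes. It was the highest of all 25 arrays for 15 members (46.9%), against 6.59% of all genes. Hk1, which passed the filter through E9.5 alone, is in both of these counts, and its place there carries no support. No other E9.5 array was highest for more than 3 members. The array is 1 embryo, so these values describe it and have no test.

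The members furthest above the other KO arrays by log2 signal were Adm, Pfkp and Ddit4. Ddit4 read 13.3 on replicate 3, 10.1 to 10.6 on the other KO arrays and 9.74 to 9.89 in WT, 7.29-fold above the mean of the other KO arrays. Adm read 8.25, while the other 7 arrays of the stage read 4.73 to 5.29 and did not detect it. Pfkp read 9.85 against 6.74 to 6.98 on the other KO arrays, 8.17-fold, and its second probe read 7.61 against 5.92 to 6.05. Vegfa, the vessel growth factor, read 11.01 against 9.40 to 9.72, and its second probe 9.16 against 7.44 to 7.96. Pdk1 read 11.98 against 10.46 to 10.65.

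The prolyl hydroxylases that HIF itself induces were high on the same array. Egln3 read 9.54 against 7.40 to 8.07 on the other KO arrays. Egln1 read 8.87 against 7.57 to 7.79, and both of its other probes were also highest there (8.87 and 7.96). The collagen prolyl hydroxylases P4ha1 (8.42 against 7.01 to 7.16) and P4ha2 (9.44 against 7.76 to 7.81) stood with them. Of the transporters, Slc16a3 read 9.21 against 7.77 to 8.10, but its second probe read 5.33 against 5.39 to 5.86. Slc2a3 read 13.5 against 12.2 to 12.6.

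Not all members followed. Hif1a read 9.05 on replicate 3, the lowest of the 8 arrays, against 9.38 to 9.51 on the other KO arrays. Eno2, Mif, Ldha, Pdha1, Pfkfb3, Pfkfb4 and Pgk1 were not the highest there, with differences from the other KO mean of -0.23 to 0.28.

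**Figure D4:**
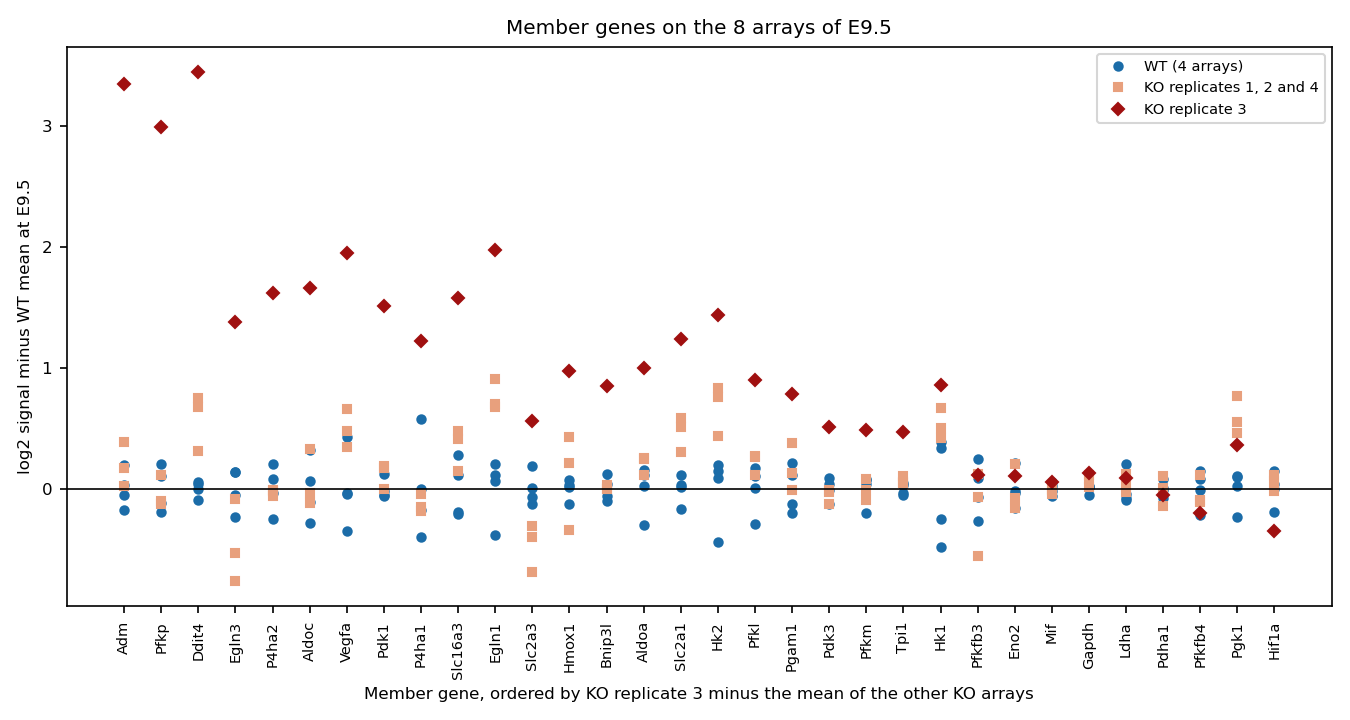
Log2 signal minus the WT mean (vertical) of the 32 members (horizontal, ordered by KO replicate 3 minus the mean of the other KO arrays) on the 8 arrays of E9.5. KO replicate 3 (red diamonds) stands above all others from Adm to Hk1 and lowest at Hif1a, while the other KO arrays (squares) and the WT arrays (blue) lie mostly within 1 log2 unit of zero.

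Genes outside the member list showed what else stood out on that array. Of all 10261 genes, the largest excess over the other KO arrays was that of Chac1, a glutathione-degrading enzyme of the amino acid and endoplasmic reticulum stress response, which read 12.6 against 6.25 to 6.42. Ddit3 (9.70 against 6.92 to 7.05), Trib3 (7.79 against 4.89 to 5.65) and Atf3 (8.01 against 5.42 to 6.27), which encode regulators of the same response, were also among the 20 largest. Of 31 other hypoxia response genes measured, 16 were highest of the stage there, and of 25 other glycolysis and pyruvate genes, 8, against 18.1% of all genes. Both lists were chosen with earlier results of these data known, so they are no independent check on the members. WT replicate 4 was the highest for 3 and 9 of these genes, and for 23.2% of all genes. The largest were Stc2 (10.4 against 6.33 to 6.65), Ppp1r3c (11.3 against 7.80 to 8.04), Bhlhe40 (9.21 against 5.74 to 5.94) and Ndrg1 (9.38 against 6.45 to 6.78). The mean endothelial marker signal was 8.51 on this array and 7.99 to 8.06 on the other KO arrays, the erythroid mean 11.04 against 10.86 to 11.28 and the neural progenitor mean 8.39 against 8.36 to 8.47. The part of cell makeup or handling in the values of this array was not tested.

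The KO effect at E9.5 was higher than that at E8.5 for 5 of 32 members, against 4.33% of all genes, and lower for 0, against 5.79%. This difference of effects was positive for 30 of 32 members, including all 12 glycolytic enzymes, with a median of 0.57 against 0.04 over all genes. Hk1, which passed the filter through E9.5 alone, is in both of these counts, and its sign carries no support. Over all genes it was positive for 5448 of 10261. The 25 other glycolysis and pyruvate genes did not share the shift, with 13 positive, 12 negative and a median of 0.13. Of the 31 other hypoxia response genes 22 were positive (median 0.18), and 15 (median -0.01) without E9.5 KO replicate 3. Without E9.5 KO replicate 3, 6 members passed as higher, against 2.84%, and 0 as lower, against 3.75%, with a median of 0.40. Hk2 in KO lay below WT at E8.5, where the difference did not pass, and above WT at E9.5, where it passed. Its difference of effects was 1.49 ± 0.26 (adjusted p = 0.0037), or 1.30 ± 0.22 (adjusted p = 0.00475) without that array. For Slc2a1 it was 0.89 ± 0.24 (adjusted p = 0.0287), or 0.69 ± 0.19 (adjusted p = 0.0363) without it.

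Pfkp had a difference of effects of 2.64 ± 0.73 (adjusted p = 0.0302), or 1.89 ± 0.37 (adjusted p = 0.0106) without that array. Hmox1 had one of 2.27 ± 0.51 (adjusted p = 0.0118), or 2.05 ± 0.50 (adjusted p = 0.0259), and Aldoc one of 1.42 ± 0.41 (adjusted p = 0.035), or 1.02 ± 0.24 (adjusted p = 0.0215). Ddit4 passed only without it (1.61 ± 0.47, adjusted p = 0.0493). Hk2 kept its call without each of the 14 arrays in turn, and so did Hmox1. Aldoc was lost without 8 of them, with an adjusted p of 0.0948 without E8.5 WT replicate 1. Pfkp was lost without E8.5 WT replicate 1 (0.0918), E8.5 KO replicate 2 (0.0759), E9.5 WT replicate 3 (0.0527) and E9.5 WT replicate 4 (0.0642). Slc2a1 was lost without E8.5 WT replicate 1 (0.0636), E8.5 WT replicate 3 (0.064), E8.5 KO replicate 1 (0.0638) and E9.5 WT replicate 4 (0.0648). With plate as a covariate, Pfkp stood at 2.59 (adjusted p = 0.124), Hmox1 at 2.05 (0.0841) and Aldoc at 1.44 (0.129), so these calls were lost, and 2 members passed. With the authors' normalized values they were lost too, with smaller differences of 1.16 (adjusted p = 0.114), 0.60 (0.0661) and 0.67 (0.0748). Hk2 (1.4985, adjusted p = 0.00152) and Slc2a1 (0.93, 0.0161) kept their calls with those values, and Pfkl, Aldoa, Tpi1, Pgam1 and Egln1 then passed as well.

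From E8.5 to E9.5, 5 of the 25 other glycolysis and pyruvate genes fell and 6 rose in WT, where 22.9% of all genes fell and 18.9% rose. In KO 3 fell and 5 rose, where 18.6% of all genes fell and 15.6% rose. Pcx, pyruvate carboxylase, fell by 1.01 ± 0.24 in WT (adjusted p = 0.00187), and Tkt and Taldo1, enzymes of the pentose phosphate pathway, fell in both genotypes. Tkt fell by 0.97 ± 0.16 in WT (adjusted p = 8.03e-05) and by 0.68 ± 0.16 in KO (adjusted p = 0.00301). Dld, a subunit shared by mitochondrial dehydrogenases, was at least 4.13-fold higher at E9.5 in WT (difference 2.81 ± 0.29, adjusted p = 6.37e-07). Of the 31 other hypoxia response genes, 4 fell and 7 rose in WT, and 0 fell and 10 rose in KO. Arnt2, Mxi1, Vhl and Epo of that list were detected on 0 or 1 array before E9.5, so they passed the filter through that stage and these counts carry no support. Without E9.5 KO replicate 3, 2 of the 31 fell in KO, against 15.8% of all genes, and 7 rose, against 13.0%. Arnt2 (1.11, adjusted p = 0.000261), Vhl (1.23, 0.000994) and Epo (1.05, 0.00231) were among those 7, so these counts carry no support either. Edn1, which encodes the vessel-constricting peptide endothelin 1, fell by 1.79 ± 0.47 in WT (adjusted p = 0.00465). Lox, a collagen cross-linking enzyme, rose by 1.42 ± 0.39 in WT (adjusted p = 0.00613) and by 1.61 ± 0.39 in KO (adjusted p = 0.00362).

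From E7.5 to E8.0, 7 of the 31 other hypoxia response genes rose and 0 fell in WT, against 6.54% and 7.55% of all genes. In KO 9 rose and 1 fell, against 13.8% and 12.0%. Edn1 was at least 6.44-fold higher at E8.0 in WT (difference 3.41 ± 0.62, adjusted p = 0.000623) and at least 2.84-fold higher in KO (difference 1.86 ± 0.51, adjusted p = 0.0101). Ak4, a mitochondrial adenylate kinase, rose by 1.11 ± 0.16 in WT (adjusted p = 7.66e-05) and by 1.45 ± 0.13 in KO (adjusted p = 1.28e-07). At E9.5, Ak4 was the 1 gene of the 31 that passed between genotypes, higher in KO by 0.75 ± 0.12 (adjusted p = 0.00162). At E8.5, 1 of the 31 was higher in KO, against 3.18% of all genes, and 1 was lower, against 2.42%. The lower one was Cited2, which encodes an inhibitor of HIF (-0.95 ± 0.20, adjusted p = 0.0105). At E8.0, 0 of the 31 were higher in KO, against 1.2% of all genes, and 1 was lower, against 0.536%.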

How the data were processed

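RNA of 25 embryo samples was measured on Illumina MouseRef-8 v2.0 arrays. The authors deposited raw probe signals as intensity values with a detection p-value per probe, per the file headers, and a normalized table of intensity values on a linear scale. For that table, the normalization was not given in the sources used here. Its column medians were 124 for E7.5 to E8.5 and 153 for E9.5. Raw array medians ran from 107 to 262, and 42.5 to 53.0% of probes were detected on an array.

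The deposited intensity values were corrected and quantile normalized with limma's neqc (limma 3.58.1, R 4.3.3), with an offset of 16, and taken to log2. Of 25697 probes, 23978 had 1 gene symbol in the platform annotation, 0 had several and 1719 had none. Probes with a detection p under 0.05 on at least 3 arrays were kept (15030), and the probe with the highest mean stood for a gene. One limma model over 25 arrays in 9 groups gave 12 comparisons, with Benjamini-Hochberg adjustment over 10261 genes. A fold against a group with no detected array is given as a bound. The code was tested on simulated data.

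The members and lists were chosen with earlier results of these data known. Named in full were members past an adjusted p of 0.05, at most the 10 largest in each direction, with up to 3 others per role. Other pathway genes were named from the 3 largest in each direction. The few genes outside these lists named for E9.5 KO replicate 3 were chosen after their values were seen. Matching the detection p-values to their signals was an alternative chosen after seeing the data. It moved log2 values by at most 0.0441 and changed no count of member calls.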

Additional observations from a re-analysis of the deposited data

Results flagged for a closer look

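In groups of 4 arrays, an array was listed where its gap to the nearest other array divided by the group's range was above Dixon's critical value, which chance alone gives in about 1 in 20 groups. The 64 groups tested were the 32 members in E9.5 KO and in E9.5 WT. All members of a genotype were read on the same 4 arrays, so the groups are not independent and their count is not a test. The share over all genes was not computed. Of the 64 groups, 13 met this, 9 in E9.5 KO and 4 in E9.5 WT. In all 9 KO groups replicate 3, which is 1 embryo, was the highest. The share of the range was 0.971 for P4ha2, 0.959 for Bnip3l, 0.922 for Pfkp, 0.896 for P4ha1, 0.891 for Adm, 0.875 for Pdk1, 0.861 for Ddit4, 0.858 for Tpi1 and 0.843 for Aldoa. In E9.5 WT, replicate 4 was the lowest for Pfkm (0.857) and Hk2 (0.838), replicate 2 the lowest for Gapdh (0.861) and replicate 1 the highest for Ldha (0.833).

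The KO effect differed between E9.5 and E8.5 by limma's test of the difference for 5 members. The log2 difference of the effects was 2.64 for Pfkp, 2.27 for Hmox1, 1.49 for Hk2, 1.42 for Aldoc and 0.89 for Slc2a1.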

How the results depend on the processing

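Counts are of members that passed. For KO against WT at E8.5 the count of 3 was 1 with the authors' normalized values, where that member was Hk2 and not one of the 3, and 0 with the compared groups alone, with plate as a covariate and within plate 2. From E7.5 to E8.0 in WT the count of 4 was 7 without background correction, with plate as a random block, with the array labelled whole embryo added and with the identities of the normalized table, 2 with a replicate block and 1 with the groups alone. In KO the count of 6 was 3 with the groups alone. From E8.0 to E8.5 in KO the count of 2 was 1 with the authors' normalized values, without background correction, without the filter, with every probe tested singly, with the groups alone, with plate as a covariate or random block, with a replicate block and with those identities. From E8.5 to E9.5 plate as a random block gave 9 in place of 19 in WT and 6 in place of 13 in KO. For the KO effect at E9.5 minus that at E8.5 the count of 5 was 10 without background correction, 2 with plate as a covariate and 8 with a replicate block. The causes were not tested.

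Leaving out 1 array at a time gave counts of 0 to 0 at E7.5, 0 to 1 at E8.0, 0 to 2 at E8.5 and 0 to 3 at E9.5 between genotypes. Between stages it gave 1 to 3 in WT and 3 to 5 in KO from E7.5 to E8.0, 0 to 0 in WT and 1 to 1 in KO from E8.0 to E8.5, and 13 to 19 in WT and 10 to 13 in KO from E8.5 to E9.5. It gave 0 to 1 and 2 to 8 for the differences of KO effects at E8.5 and E9.5. Pfkp at E9.5, at 0.72 with all arrays, ran from -0.03541 without KO replicate 3, where it reversed, to 1.004 without KO replicate 1. Over 62 single-gene results and 921 alternatives, 747 kept direction and side of the threshold, 172 lost the call, 1 gained it and 1 reversed. Replicate numbers did not pair the samples (correlations of deviations from -0.14 to 0.16). The authors' normalized values and a plate covariate were not run from E8.5 to E9.5. The column medians of the normalized table differed between E9.5 and the earlier stages, and plate could not be separated from stage.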
